A study of Mus musculus with 16 samples.

Results

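The proteasome is the large protease that degrades ubiquitin-tagged proteins, and its subunit genes were followed here in embryoid bodies (EBs) made from R1 mouse embryonic stem cells. EBs are aggregates of differentiating cells grown in suspension without LIF. Total RNA was taken at day 0, before retinoic acid (RA) was added to EBs that were 4 days old, and at day 4, after 4 days in 2 μM RA, and no group of the same age without RA was analysed here. There were 2 RNA samples (replicates 1 and 2) of each day. Each RNA sample was divided into 4 vials that were given spike-in RNA made in vitro (mixes 1, 2 and 3) or none of it (mix 4), with ERCC mix 1 in the vials of mixes 1 and 3 and ERCC mix 2 in the others, and each vial gave 1 library. The 16 libraries are therefore splits of 4 RNA samples, and every comparison below was made over the RNA samples, each as the mean of its vials.

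The genes were chosen by symbol. All RefSeq rows of the deposited FPKM table whose symbol begins with Psma, Psmb, Psmc, Psmd, Psme, Psmf or Psmg were taken, which gave 57 rows of 51 genes among 33702 RefSeq rows of 23891 genes. Most of them (45 genes) had 1 row, and Psma7, Psmd2, Psmd4, Psme2, Psmd10 and Psmg4 had 2 rows each. All 57 rows were above 0 in some library and were tested, 52 had a mean of at least 1 FPKM over the 4 RNA samples, and the other 5 lay below that level. By structure the genes fell into 7 alpha and 7 constitutive beta subunits of the 20S core, 3 immunoproteasome beta subunits, 2 tissue-specific core subunits, 6 ATPases and 3 other subunits of the 19S base, 8 subunits of the 19S lid, 6 activators and inhibitors and 7 assembly chaperones. The remaining 2 symbols matched by name only. Psmc3ip encodes a meiotic recombination protein also called Hop2, and Psme3ip1 encodes a protein that binds the activator Psme3.

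The 20S core is a barrel in which outer rings of alpha subunits form the gate and inner rings of beta subunits hold the proteolytic sites, carried by Psmb5, Psmb6 and Psmb7. The 19S regulator caps the barrel, where the lid removes ubiquitin and the ATPases of the base unfold the substrate and feed it in. Interferon induces the replacement subunits Psmb8, Psmb9 and Psmb10, which take the places of Psmb5, Psmb6 and Psmb7 in newly assembled cores to form the immunoproteasome, known for producing peptides for MHC class I, and it also induces the cap PA28, made of Psme1 and Psme2. When proteasome activity falls short, the transcription factor Nfe2l1 binds antioxidant response elements (AREs) at subunit genes and raises their transcription together.

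The promoters of the 3 immunoproteasome genes are shown because these genes carried the largest differences between the days. Matches to the ARE core in Psmb5 and Psmb6 are shown because these are constitutive partners of Psmb8 and Psmb9. The sequences are those of RefSeq on GRCm38.p6, from 250 bases before to 50 bases after the transcription start. Capitals mark a match to CCAAT read on the opposite strand in Psmb9 (chr17:34187281-34187580, minus strand) and a match to the GAS motif in Psmb8 (chr17:34197945-34198244, plus strand). The window of Psmb10 (chr8:105938343-105938642, minus strand) held no match to the GAS motif.
Psmb9: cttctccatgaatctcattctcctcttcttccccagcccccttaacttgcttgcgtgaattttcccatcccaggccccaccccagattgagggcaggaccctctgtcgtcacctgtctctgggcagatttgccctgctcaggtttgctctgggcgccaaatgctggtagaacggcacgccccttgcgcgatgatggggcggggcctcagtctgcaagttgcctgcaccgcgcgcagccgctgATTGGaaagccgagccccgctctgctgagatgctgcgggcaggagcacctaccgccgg
Psmb8: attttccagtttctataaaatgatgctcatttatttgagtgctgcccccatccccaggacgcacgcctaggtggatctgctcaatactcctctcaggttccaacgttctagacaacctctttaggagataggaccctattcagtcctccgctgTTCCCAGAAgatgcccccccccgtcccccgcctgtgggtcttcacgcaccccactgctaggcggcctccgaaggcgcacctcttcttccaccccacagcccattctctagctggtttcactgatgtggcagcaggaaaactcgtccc
Psmb10: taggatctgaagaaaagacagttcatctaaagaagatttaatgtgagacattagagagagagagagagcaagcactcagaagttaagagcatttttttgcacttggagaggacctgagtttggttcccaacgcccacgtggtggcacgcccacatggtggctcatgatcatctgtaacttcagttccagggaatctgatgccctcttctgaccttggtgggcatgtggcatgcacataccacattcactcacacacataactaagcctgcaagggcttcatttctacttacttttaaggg
The stretches of Psmb5 (chr14:54618004-54618072, minus strand) and Psmb6 (chr11:70525318-70525386, plus strand) show a match to the ARE core in capitals with 30 bases on each side.
Psmb5: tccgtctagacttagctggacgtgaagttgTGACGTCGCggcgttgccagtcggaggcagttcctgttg
Psmb6: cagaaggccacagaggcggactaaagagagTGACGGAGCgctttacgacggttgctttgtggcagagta

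Of the 51 genes, 43 had a promoter window and were searched on both strands beside all 27025 genes with a window. The ARE core TGACNNNGC was found in 6 of the 43 windows (14%), those of Psmb5, Psmb6, Psmc6, Psmd12, Psme4 and Psmd9, and in 14% of all windows. The GAS motif TTCNNNGAA was found in Psmb8, Psmd2 and Psmg1 (6.98%), against 9.55% of all windows. An ISRE-like motif of 2 copies of GAAA with 2 bases between them, the form bound by interferon regulatory factors, was found in Psmb3, Psmd4, Psme1, Psmd9 and Psmg4 (11.6% against 3.99%), and CCAAT in 16 members (37.2% against 41.1%). The 4 patterns were counted separately, overlaps included, and a match is a description of letters only. On chromosome 17 the genes Psmb9, Tap1, Psmb8 and Tap2 lay side by side between 34182030 and 34216321, a stretch of 34.3 kb in the MHC, and the windows of Psmb9 and Tap1, which are transcribed away from each other, shared 275 bases.

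The cells were checked against markers before the proteasome was described, with FPKM summed per gene. All 6 markers of pluripotent cells were lower at day 4, among them Pou5f1, which went from 87.3 and 37.2 FPKM to 1.04 and 0.693 FPKM. The receptor gene Rarb, a direct target of RA, went from 0.19 and 0.20 FPKM to 106 and 108 FPKM (limma adjusted p = 0.00443). Of other RA genes, Stra8 was higher, Cyp26a1 was lower and Hoxb1 did not pass. Of 5 endoderm markers 4 were higher at day 4, led by Gata6 with a log2 difference of 3.08. Of these Foxa2 did not pass after GC correction (limma adjusted p = 0.0792) and was at no more than 0.924 FPKM in an RNA sample. Among neural markers Pax6 and Neurog2 were higher, Tubb3 and Sox1 were lower and Nes did not pass. The call of Sox1 was lost after GC correction (-0.24, limma adjusted p = 0.598). These are bulk RNA samples, in which fewer cells of a type and less RNA per cell cannot be told apart. In an RNA sample Pax6 was at no more than 0.424 FPKM, Sox1 at no more than 0.1165 FPKM and Neurog2 at no more than 0.04775 FPKM.

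A property of the libraries bears on every value below. In day 0 replicate 2 the vials of mixes 3 and 4 stood apart from those of mixes 1 and 2, with lower values for GC-rich transcripts. In the mapping statistics of the study these vials also had the highest shares of intronic reads and the lowest shares of transcripts with reads. The study names the mix 1 vial of day 4 replicate 1 as an outlier for ribosomal RNA reads. Over the 52 proteasome rows with a mean of at least 1 FPKM, the median coefficient of variation between vials was 26.2% in day 0 replicate 2, against 3.02% in day 0 replicate 1 and 6.48% and 5.09% in the day 4 replicates. The results are therefore given as deposited and, where they differ, with FPKM corrected for GC content or with the replicate number as a block. For the Psmb3 subunit, for example, the 8 libraries of day 0 ran from 45.5 to 370 FPKM, with a median of 333.

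The immunoproteasome subunits had the largest differences of all proteasome genes, and all 3 were lower at day 4. Psmb8 (NM_010724), the counterpart of the chymotrypsin-like subunit, lay between 12.9 and 76.4 FPKM in the 8 libraries of day 0, with a median of 64.5, and between 0.028 and 0.280 FPKM in those of day 4, with a median of 0.063. No library of a day overlapped the other day. By RNA sample it was at 72.3 and 34.2 FPKM at day 0 against 0.0780 and 0.130 FPKM at day 4, which left 0.195% of the day 0 mean. The log2 difference on log2(FPKM + 0.1) was -7.94 ± 0.46 (SE, 2 against 2 RNA samples, limma with Benjamini-Hochberg adjustment over 28262 rows, adjusted p = 0.0156).

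Psmb10 (NM_013640), the counterpart of the trypsin-like subunit, was the most abundant of the 3. It lay between 10.4 and 151 FPKM at day 0 (median 109.5) and between 1.29 and 2.82 FPKM at day 4 (median 1.64), without overlap. The RNA samples were at 136.0 and 41.8 FPKM and then at 2.02 and 1.43 FPKM, a log2 difference of -5.39 ± 0.66 (limma adjusted p = 0.0235). The day 0 replicates of this gene differed by -1.70 on the log2 scale, the lowest value of replicate 2 against replicate 1 among the 52 rows with a mean of at least 1 FPKM.

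Psmb9 (NM_013585), the counterpart of the caspase-like subunit, was the scarcest of the 3 at day 0, at 8.54 and 4.16 FPKM, against 0.221 and 0.136 FPKM at day 4, when Psmb8 was lower still. Its libraries ran from 2.12 to 9.15 FPKM (median 7.04) and from 0.048 to 0.316 FPKM (median 0.175) and did not overlap either. The log2 difference was -4.46 ± 0.49 (limma adjusted p = 0.0204). After GC correction the differences of Psmb8, Psmb10 and Psmb9 were -7.11, -4.26 and -3.81, with limma adjusted p of 0.00421, 0.00661 and 0.00459. With the replicate block the adjusted p were 0.00790, 0.00842 and 0.00890. All 3 calls were lost, with no change of direction, in the fit on the mix 4 vials alone and whenever day 0 replicate 1 or either day 4 replicate was left out, settings in which none of the 7 members called by the fit to all 4 RNA samples passed. The call of Psmb10 was also lost without a filter on low values (adjusted p = 0.0599).

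The immunoproteasome is abundant in blood cells, so 6 markers of blood and immune cells were examined beside it. Cd3e was at 0 in all libraries. The summed level of the 6 genes was 1.22 to 4.15 FPKM at day 0 and 0.276 to 0.921 FPKM at day 4, nearly all of it from the lysosomal gene Cd68, which reached 4.07 FPKM while no other marker passed 0.145 FPKM in any library. Cd68 was also lower at day 4 (log2 difference -2.104, limma adjusted p = 0.0379). Ptprc, the defining gene of blood cells, was at most at 0.0095 FPKM in the mean of an RNA sample. The part of cells with Cd68 in the result was not tested.

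The constitutive partners had smaller differences. Psmb7 (NM_011187) had the highest mean of the beta subunits over the 4 RNA samples, although Psmb6 and Psmb3 were above it in day 0 replicate 1, and was at 361 and 340 FPKM at day 0 against 354 and 327 FPKM at day 4, a log2 difference of -0.04 ± 0.16 (limma adjusted p = 0.847). Its libraries of both days overlapped, from 288 to 389 and from 319 to 370 FPKM. Psmb5 (NM_011186) was at 229.5 and 109 FPKM and then at 66.1 and 50.4 FPKM, and Psmb6 (NM_008946) at 397 and 178 FPKM and then at 126 and 94.7 FPKM. The log2 differences of -1.45 ± 0.44 and -1.28 ± 0.47 did not pass the test (limma adjusted p = 0.0966 and 0.133), and the libraries overlapped between the days. They passed with the replicate block (adjusted p = 0.0171 and 0.0242), while after GC correction the differences were -0.14 and -0.21 (adjusted p = 0.228 and 0.178). Psmb5 and Psmb6 had 56.6% and 55.8% GC, against 48.7% for Psmb7.

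**Figure D1:**
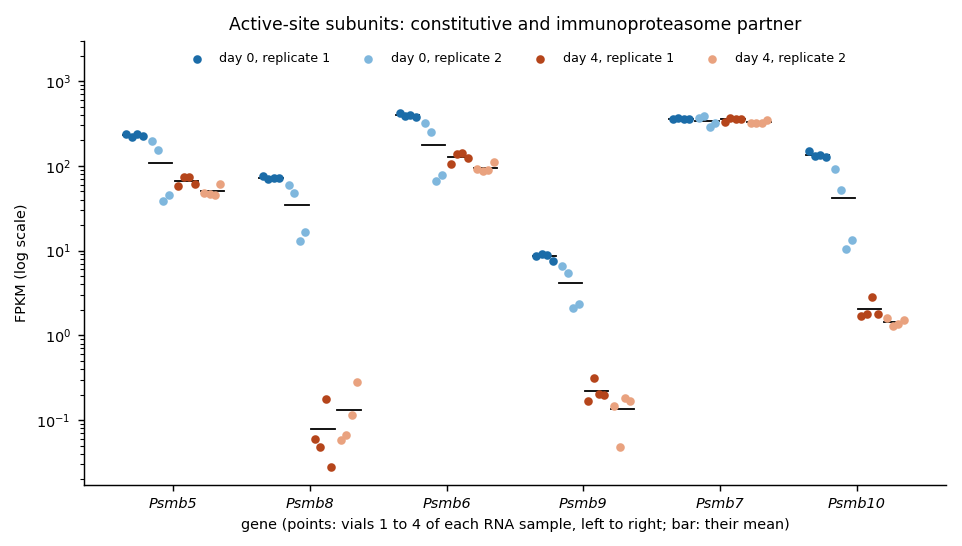
FPKM on a log axis of the constitutive active-site subunits and their immunoproteasome counterparts in 16 libraries, with points for the vials of each RNA sample and a bar for their mean. Psmb8, Psmb9 and Psmb10 fall without overlap from day 0 to day 4, and Psmb7 stays between 288 and 389 FPKM. The mix 3 and 4 vials of day 0 replicate 2 sit well below the other day 0 vials for all but Psmb7.

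FPKM is per length, so levels of partner genes can be set against each other within a library, and the pairs Psmb8 with Psmb5 and Psmb9 with Psmb6 have nearly the same GC content (55.8% with 56.6%, and 55.3% with 55.8%). The level of Psmb8 was 31.5% and 31.4% of that of Psmb5 in the day 0 replicates and 0.118% and 0.258% in those of day 4. This ratio ran from 30.3% to 36.7% over all 8 libraries of day 0, and the vials that stood apart had its highest values, 33.1% and 36.7%. At day 4 it ran from 0.0456% to 0.454%. Psmb9 was at 2.15% and 2.33% of Psmb6 at day 0 and at 0.175% and 0.144% at day 4. The ranges over the libraries were 1.95% to 3.21% and 0.0548% to 0.231%. Here too the vials that stood apart were the highest of day 0, at 3.21% and 3.02%.

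For Psmb10 and Psmb7, which differ in GC content (56.5% and 48.7%), the ratio was 37.7% and 12.3% at day 0 and 0.569% and 0.439% at day 4. Here the vials of day 0 spread from 3.60% to 41.8%, and the lowest of them was still above the highest of day 4, 0.777%. With 0.1 added to each FPKM, the log2 ratios of the 3 pairs, Psmb8, Psmb9 and Psmb10 in order, differed between the days by -6.49, -3.18 and -5.35. The percentages above hold no such offset. It is of the size of Psmb8 and Psmb9 at day 4, so for these pairs the log2 values are smaller changes than the percentages give. With 2 against 2 RNA samples the exact permutation test, two-sided, cannot go below 0.333, and it gave 0.333 for each pair. The 3 immunoproteasome subunits together made up 6.07% to 18.8% of the FPKM of the 6 active-site genes in the libraries of day 0 and 0.307% to 0.551% in those of day 4.

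Among the other constitutive beta subunits the values spread widely. Psmb1 was at 259 and 226 FPKM at day 0 against 287 and 286 FPKM at day 4, and its 8 day 4 libraries all lay above those of day 0 although the difference of 0.24 did not pass the test (limma adjusted p = 0.333) and was -0.11 after GC correction. Psmb3 had the largest difference of the group, from 364 and 159 FPKM to 81.9 and 57.3 FPKM (-1.81 ± 0.50, limma adjusted p = 0.0812, 0.0125 with the replicate block, and -1.06 with 0.0606 after GC correction). Psmb2 also passed with the block, with a difference of -0.95, and not after GC correction (-0.71, adjusted p = 0.0610). Both passed with the correction when the fit was made per gene (adjusted p = 0.0349 and 0.0356). None of the 7 constitutive beta subunits passed the test as deposited, and the median of their differences was -0.95, or -0.14 after GC correction.

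The alpha subunits, which form the gate and the platform for assembly, had differences between -0.40 and 0.42 as deposited. Psma2 had the highest mean over the RNA samples, although Psma4 was above it at day 4, with 339 and 346 FPKM at day 0 against 334 and 315 FPKM at day 4 (-0.08, limma adjusted p = 0.720). After GC correction its difference was -0.89, which did not pass in the fit by row (adjusted p = 0.0659) but passed per gene (0.0393) and with the block in addition (0.0172). Psma7 had the lowest mean over the RNA samples, while at day 0 Psma1 was lower on average. The main row of Psma7 (NM_011969) was at 272 and 155 FPKM and then at 175 and 138 FPKM, and its other row stayed below 1 FPKM in every library. Psma1 had the highest difference, from 175 and 221 FPKM to 253 and 273 FPKM (0.42 ± 0.19, limma adjusted p = 0.193). The median over the 7 rows with at least 1 FPKM was -0.03 as deposited and -0.06 after GC correction, and in the fit by row without the block Psma3 was the 1 row to pass after the correction (-0.58, adjusted p = 0.0150).

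The tissue-specific core subunits were close to 0 FPKM. Psma8, the alpha subunit of spermatocytes, was at no more than 0.126 FPKM in any library, and so was Psmb11, the subunit of thymic cortical epithelium. They were at 0.0835 and 0.0810 FPKM and at 0.0783 and 0.0788 FPKM in the day 0 samples, and neither passed the test (limma adjusted p = 0.115 and 0.343).

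In the 19S base, most subunits were at a lower level at day 4, and 1 passed the test as deposited. Psmd1 (NM_027357), the large scaffold subunit of the base also called Rpn2, lay between 153.8 and 164.0 FPKM at day 0 (median 159) and between 95.7 and 105 FPKM at day 4 (median 100.4). Its replicates were close together, at 156 and 162.5 FPKM and then at 98.0 and 102 FPKM, and the log2 difference of -0.67 ± 0.14 passed narrowly (limma adjusted p = 0.0493, and 0.00597 after GC correction). The call was lost with median centring (adjusted p = 0.225), with logs averaged over the vials (0.0547) and without day 0 replicate 2 (0.0526). Psmd2, the other scaffold subunit, was at 208 and 143 FPKM and then at 107 and 93.6 FPKM in its main row (NM_134101) and passed with the block (adjusted p = 0.0384) and after GC correction (-0.56, adjusted p = 0.0242). Both rows of the ubiquitin receptor Psmd4 passed with the block, at -1.53 and -1.34, and neither passed after GC correction, at -0.69 and -0.47 (adjusted p = 0.0556 and 0.0614). Summed per gene Psmd4 did pass after the correction (-0.56, adjusted p = 0.0318).

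Of the 6 ATPases of the base, 5 had a lower and 1 a higher level at day 4. Psmc6 had the highest mean over the RNA samples, although Psmc5 was above it in day 0 replicate 1, and was at 198 and 288 FPKM at day 0 against 280.5 and 309.5 FPKM at day 4. Its difference turned with the processing, from 0.30 ± 0.25 as deposited (limma adjusted p = 0.419) to -0.44 ± 0.09 after GC correction (adjusted p = 0.0384), and this transcript had only 37.0% GC. Psmc2, which had the lowest mean over the RNA samples but not at day 4, with 118 and 102 FPKM at day 0 against 81.0 and 75.6 FPKM at day 4, was nearly the same on both scales (-0.49 and -0.58), its libraries did not overlap, and it passed after the correction (adjusted p = 0.0149). Psmc4 and Psmc5 passed after the correction and with the block, and Psmc3 passed with the block alone (adjusted p = 0.0253). The median of the group was -0.79 as deposited and -0.49 after GC correction. After the correction 4 of 6 were called lower, beside 17.2% of all rows tested.

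In the lid no subunit passed as deposited without the block. Psmd3 and Psmd13 passed with it (limma adjusted p = 0.0125 and 0.0397), where 20.9% of all rows tested were lower. After GC correction 5 of 8 passed, all lower, beside 17.2% of all rows tested. Psmd13 was at -0.80 as deposited and at -0.30 after the correction (adjusted p = 0.0778). The largest difference was that of Psmd3 (NM_009439), also called Rpn3, from 119 and 41.4 FPKM to 18.4 and 12.6 FPKM. This was -2.20 ± 0.60 as deposited (limma adjusted p = 0.0820) but -0.74 ± 0.14 after the correction (adjusted p = 0.0286), and with 58.3% GC it was the most GC-rich of the lid. Psmd14, the deubiquitinase of the lid, moved the other way with the processing, from -0.26 to -0.65 (adjusted p = 0.00778 after the correction). The libraries of Psmd7, Psmd11 and Psmd12 did not overlap between the days. Psmd6 had the highest mean over the RNA samples, although Psmd12 was above it at day 0, and was at 165 and 210 FPKM and then at 192 and 194 FPKM, with differences of 0.05 and -0.02.

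The activators held 3 of the 7 calls among the proteasome genes as deposited, where 8.65% of all rows tested were called lower. Psme2 (NM_011190), the beta chain of PA28, lay between 119 and 305 FPKM at day 0 (median 290) and between 47.6 and 75.7 FPKM at day 4 (median 58.7). The RNA samples were at 303 and 203 FPKM and then at 68.5 and 52.7 FPKM, and the log2 difference was -2.04 ± 0.29 (limma adjusted p = 0.0285; -1.53 after GC correction, adjusted p = 0.00476). A second row of the gene, NM_001029855, was far lower and erratic, since the vials of day 0 replicate 2 held 3.04, 2.103, 23.5 and 0.242 FPKM, and it did not pass (2.17 ± 1.23, adjusted p = 0.267). Reads shared by both rows were divided by RSEM, so the sum per gene is the firmer value. It was 304 and 210 FPKM at day 0 against 77.5 and 64.9 FPKM at day 4 (-1.83, limma adjusted p = 0.0162).

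Psme1, the alpha chain of PA28, was at 161 and 112 FPKM and then at 66.7 and 58.4 FPKM. Its libraries did not overlap, but the difference of -1.10 ± 0.24 did not pass as deposited in the fit by row (limma adjusted p = 0.0563), passed per gene (0.0394) and with the replicate block (0.0181), and was -0.41 after GC correction (0.244 by row and 0.189 per gene). The level of Psme2, with its rows summed, was 1.67 to 2.09 times that of Psme1 in the libraries of day 0 and 1.03 to 1.26 times at day 4. Psme3, the nuclear activator PA28 gamma, lay between 78.2 and 85.2 FPKM at day 0 and between 38.8 and 45.1 FPKM at day 4. The replicates were at 80.8 and 83.2 FPKM and then at 41.0 and 42.5 FPKM, 50.9% of the day 0 mean, and the difference of -0.97 ± 0.13 passed (limma adjusted p = 0.0268; 0.0356 after GC correction).

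Psme2b, a copy closely related to Psme2, was also called lower (-1.97 ± 0.27, limma adjusted p = 0.0285), but it reached at most 0.737 FPKM and its reads may belong to Psme2. Psme4, which encodes the activator PA200, was at 94.0 and 144 FPKM at day 0 against 78.4 and 90.3 FPKM at day 4, and passed after GC correction (-0.85, adjusted p = 0.0151) but not as deposited (0.277). The inhibitor Psmf1 was scarce at 10.3 and 6.05 FPKM and then 6.88 and 6.22 FPKM, and did not pass (adjusted p = 0.560).

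**Figure D2:**
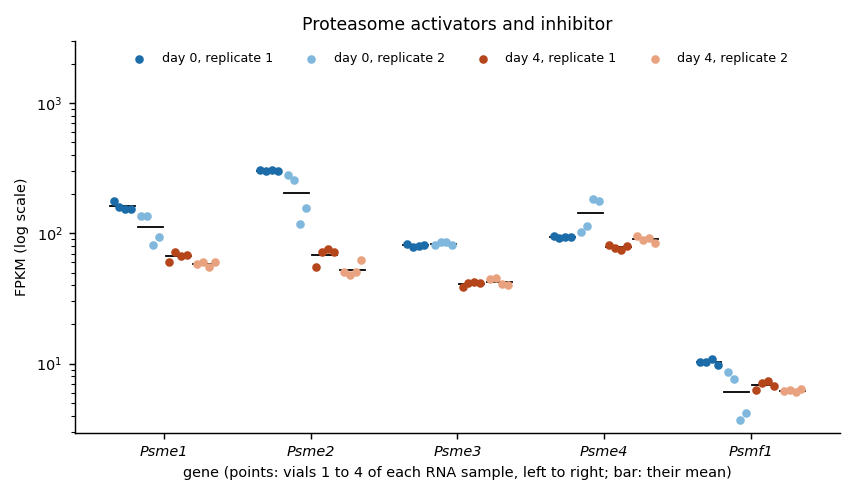
FPKM on a log axis of the activator genes Psme1, Psme2 (NM_011190), Psme3 and Psme4 and the inhibitor Psmf1, with a point for each vial and a bar for the mean of each RNA sample. The replicates of Psme3 are close together at 80.8 and 83.2 FPKM at day 0 against 41.0 and 42.5 FPKM at day 4, and in day 0 replicate 2 the vials of the other genes spread apart.

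The assembly chaperones, which put the core and the base together and leave the finished particle, were split. As deposited none of the 9 rows passed, with a median of 0.24, and after GC correction the median was -0.10. Psmd10, also called gankyrin, was higher at day 4 when its rows were summed, at 18.5 and 21.8 FPKM and then at 31.1 and 32.4 FPKM (0.66, limma adjusted p = 0.0485), but not after GC correction (0.17, adjusted p = 0.172). Psmg1 was lower per gene but not by row (adjusted p = 0.0576), from 71.9 and 69.2 FPKM to 47.6 and 46.4 FPKM (-0.58, limma adjusted p = 0.0428, and -0.40 with adjusted p = 0.0949 after the correction). Psmg3 had the largest difference outside the immunoproteasome as deposited, from 24.9 and 7.87 FPKM to 3.04 and 1.41 FPKM (-2.70 ± 0.74, limma adjusted p = 0.0811, and 0.00943 with the replicate block). After GC correction it was -1.48 (adjusted p = 0.102), smaller than the differences of Psme2 and Psme2b. The short row NM_001110515 of Psmg4 was the 1 member row called higher after GC correction (1.43, adjusted p = 0.0157), and it was at 4.07 and 2.47 FPKM and then at 5.69 and 5.27 FPKM. Psmd5 had the highest mean of the chaperones over the RNA samples, although Psmg1 was above it at day 0, and was at 54.9 and 60.4 FPKM and then at 68.4 and 67.9 FPKM without overlap of its libraries (0.24, adjusted p = 0.267, and -0.10 after GC correction). Psmd9 had the lowest mean, although Psmg3 was lower at day 4, and was at 15.03 and 7.35 FPKM and then at 6.99 and 6.23 FPKM (adjusted p = 0.303).

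The 2 genes matched by name only did not pass as deposited. Psmc3ip was at 33.4 and 22.0 FPKM at day 0 against 17.4 and 16.3 FPKM at day 4 and passed after GC correction (-0.55, adjusted p = 0.0437). Psme3ip1 was at 44.6 and 33.1 FPKM and then at 36.3 and 32.3 FPKM (-0.16, adjusted p = 0.584).

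**Figure D3:**
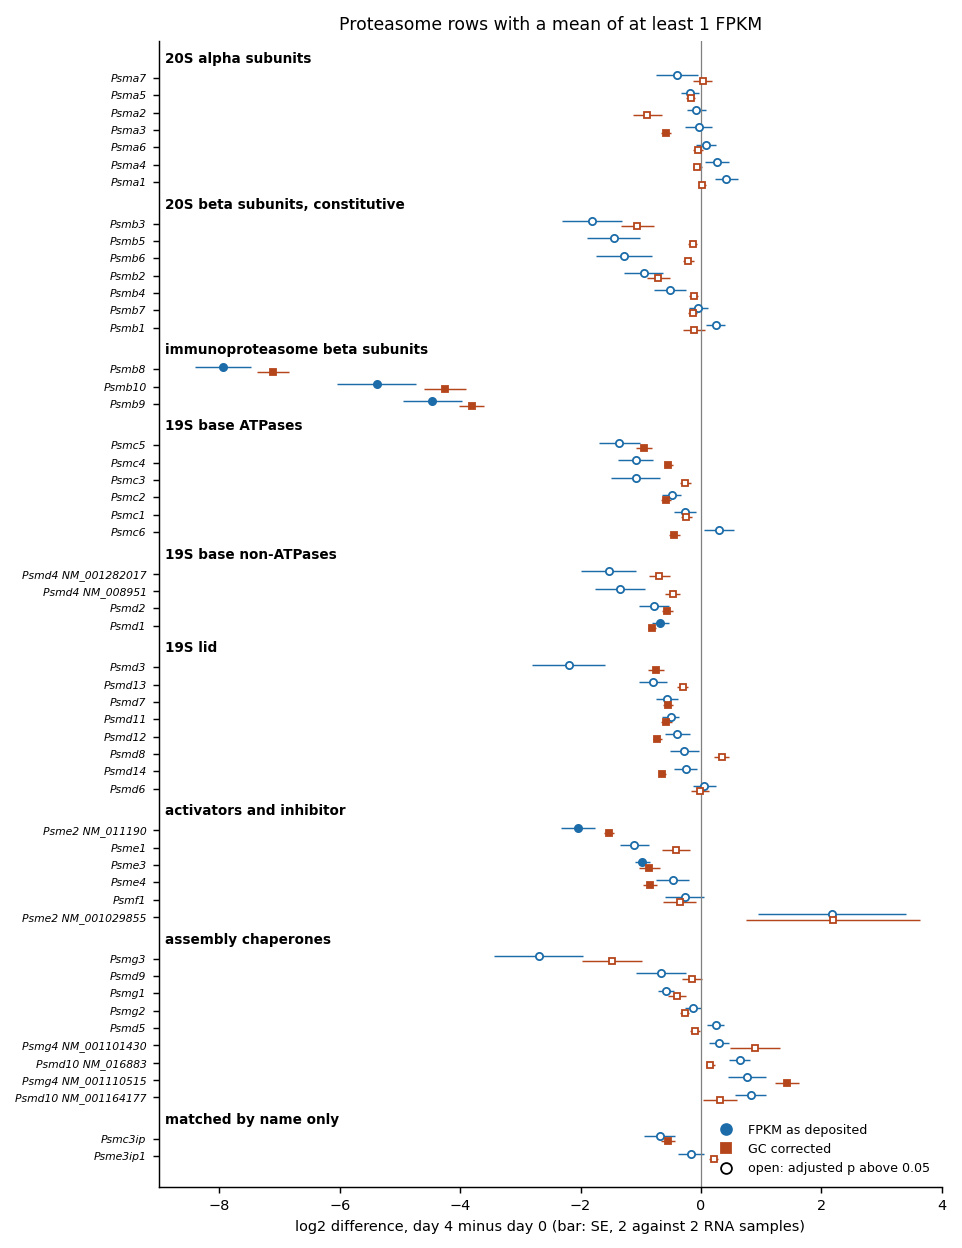
Log2 difference between day 4 and day 0 with its SE for the 52 proteasome rows with a mean of at least 1 FPKM, by structural group, as deposited (circles) and after GC correction (squares), filled where the adjusted p is at most 0.05. The 3 immunoproteasome subunits lie at -4.46 or lower as deposited, and most of the other rows lie between -2 and 1.

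Counted over the 57 rows, 7 were lower and 0 higher at day 4 in the limma test as deposited, where 8.65% of all rows tested were lower and 10.2% higher. At an unadjusted p of at most 0.05 there were 26 members, beside 11463 of all 28262 rows tested. After GC correction 20 were lower and 1 higher, against 17.2% and 18.7% of all rows, and the 7 calls were all among them. With the replicate block 21 were lower and 0 higher, against 20.9% and 14.7%. The block added 14 rows and the correction 13, and 4 rows (Psmc4, Psmc5, Psmd3 and the main row of Psmd2) were added by both. With only the mix 1 and mix 2 vials of day 0 replicate 2, 30 were lower and 6 higher, against 28.9% and 22.1%. Summed per gene, 9 were lower and 1 higher (14.7% and 16.1% of 20281 genes), and 26 lower and 0 higher after GC correction (24.5% and 27.8%). The 8 libraries of day 4 lay all below those of day 0 in 13 rows and all above in 4, against 10.8% and 15.1% of all rows.

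All but 5 member rows had a mean of at least 1 FPKM, against 14095 of 28214 RefSeq rows tested, so these shares are not over rows of like level. Over the 52 rows with a mean of at least 1 FPKM the median difference was -0.50 as deposited and -0.40 after GC correction, beside -0.16 and -0.02 over all RefSeq rows at that level. As a share of all FPKM of RefSeq rows, the members made up 1.34% and 1.42% at day 0 and 1.25% and 1.22% at day 4. The subunits of the standard 26S particle alone made up 1.14% and 1.22% and then 1.12% and 1.09%.

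The differences moved with the GC content of the transcripts. Across the 52 rows, which share libraries and are not independent, Pearson's r between GC content and the difference was -0.532, and it was -0.577 without the immunoproteasome subunits and -0.416 over 13894 RefSeq rows. Rows below 46% GC, such as Psma1, Psmc6 and Psmd10, had a median of 0.24 among the members and 0.42 among all rows. In the range from 54% to 60% GC, which holds Psmb5, Psmb6, Psmd3 and Psmg3 as well as the immunoproteasome subunits, the medians were -1.45 and -1.13. The same gradient was present inside day 0 replicate 2, where the difference of the mix 3 and 4 vials from the mix 1 and 2 vials had an r of -0.764 with GC content over the 52 rows. After GC correction the medians of the lowest and the highest range were -0.28 and -0.47. The part of GC content in the differences between the days was not tested, and the correction can also remove differences that belong to the cells.

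**Figure D4:**
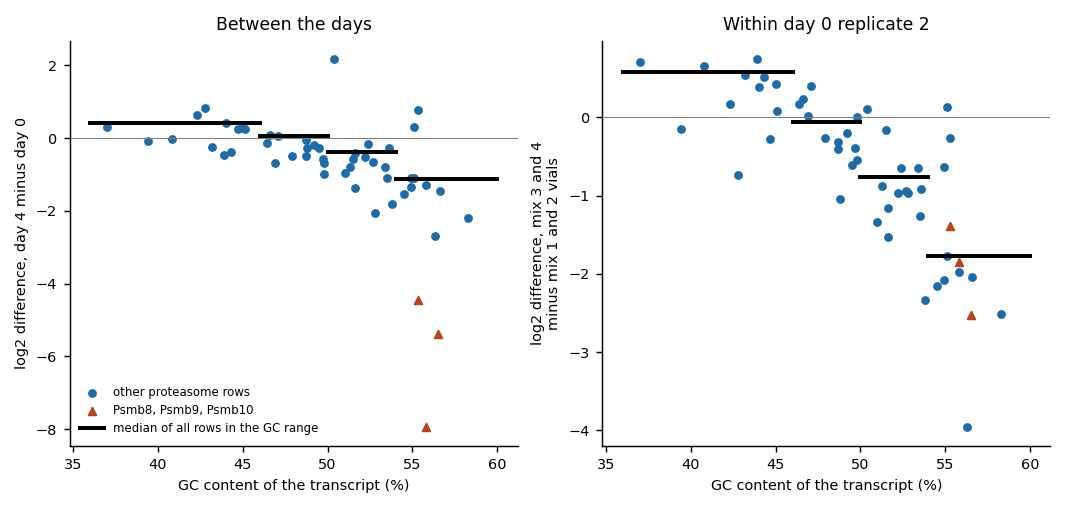
GC content of each proteasome transcript in percent against its log2 difference between the days (left) and between the vials of mixes 3 and 4 and those of mixes 1 and 2 in day 0 replicate 2 (right), with black lines for the median of all RefSeq rows in 4 ranges of GC content. Most members follow the black lines in both panels, while Psmb8, Psmb9 and Psmb10 lie far below them on the left and near them on the right.

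Genes that act with the immunoproteasome were taken from a list for antigen processing and the interferon response, with FPKM summed per gene. Of its 15 genes 8 were lower and 1 was higher as deposited, where 14.7% and 16.1% of all genes were lower and higher. The same genes passed after GC correction. Tap1 and Tap2, the peptide transporter whose genes lie beside Psmb9 and Psmb8, were at 10.5 and 4.56 FPKM and at 11.4 and 3.54 FPKM at day 0 and at 0.771 and 0.656 FPKM and 0.142 and 0.109 FPKM at day 4. Their log2 differences were -3.11 and -4.85 (limma adjusted p = 0.0206 and 0.0154). Tapbp, H2-K1, H2-D1, Erap1 and Nlrc5, the activator of class I genes, were lower too, by differences between -3.57 and -1.20. Nlrc5 was at only 0.5355 and 0.3392 FPKM at day 0.

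Irf1, a transcription factor that binds promoters of immunoproteasome genes, was at 72.0 and 42.0 FPKM at day 0 against 4.25 and 3.41 FPKM at day 4 (-3.82 ± 0.33, limma adjusted p = 0.00739). In contrast B2m, the light chain of class I, was at 68.8 and 72.9 FPKM and then at 80.7 and 81.5 FPKM (adjusted p = 0.320). Stat2, Irf2, Irf9 and Ifngr2 did not pass either. The receptor chain Ifngr1 was higher, from 6.45 and 6.26 FPKM to 14.7 and 13.97 FPKM (1.16, limma adjusted p = 0.0155).

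Regulators of proteasome transcription were also examined per gene. Nfe2l1 was at 46.9 and 26.2 FPKM at day 0 against 20.3 and 16.6 FPKM at day 4 and did not pass as deposited (-0.93, limma adjusted p = 0.113) but did after GC correction (-0.21, adjusted p = 0.0447), and Nfe2l2 stayed between 45.2 and 48.6 FPKM. Its relative Nfe2l3 was higher at day 4, from 0.165 and 0.259 FPKM to 5.15 and 5.67 FPKM (4.16, limma adjusted p = 0.00518). The enzymes that activate Nfe2l1 differed in opposite ways. Ngly1, which removes its glycans, was at 3.63 and 4.80 FPKM and then at 21.3 and 24.0 FPKM (2.41, adjusted p = 0.00777), and the protease Ddi2 was at 39.0 and 22.6 FPKM and then at 10.5 and 8.61 FPKM (-1.63, adjusted p = 0.0345). Both calls stood after GC correction.

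Proteasome genes with other symbols numbered 10 with a row. Sem1, a small lid subunit, was higher as deposited, from 260 and 234 FPKM to 402 and 395 FPKM (0.69, limma adjusted p = 0.0430), and not after GC correction (-0.11). Zfand5, which activates the 26S particle, was higher on both scales (1.79 and 1.07). The maturation factor Pomp was at 238 and 188 FPKM and then at 133.5 and 118.5 FPKM, a difference of -0.75 that passed after GC correction (adjusted p = 0.00592) and narrowly missed as deposited (adjusted p = 0.0558). After the correction Akirin2 was higher as well, and Uchl5, Usp14 and Txnl1 were lower. Adrm1, a ubiquitin receptor of the base, went from -1.55 to -0.17 with the correction and passed in neither. Among ubiquitin and shuttle genes, Uba1, Ubqln2 and Nploc4 were lower as deposited, and Uba1, Nploc4, Ubqln1, Vcp and Ufd1 were lower after GC correction.

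**Figure D5:**
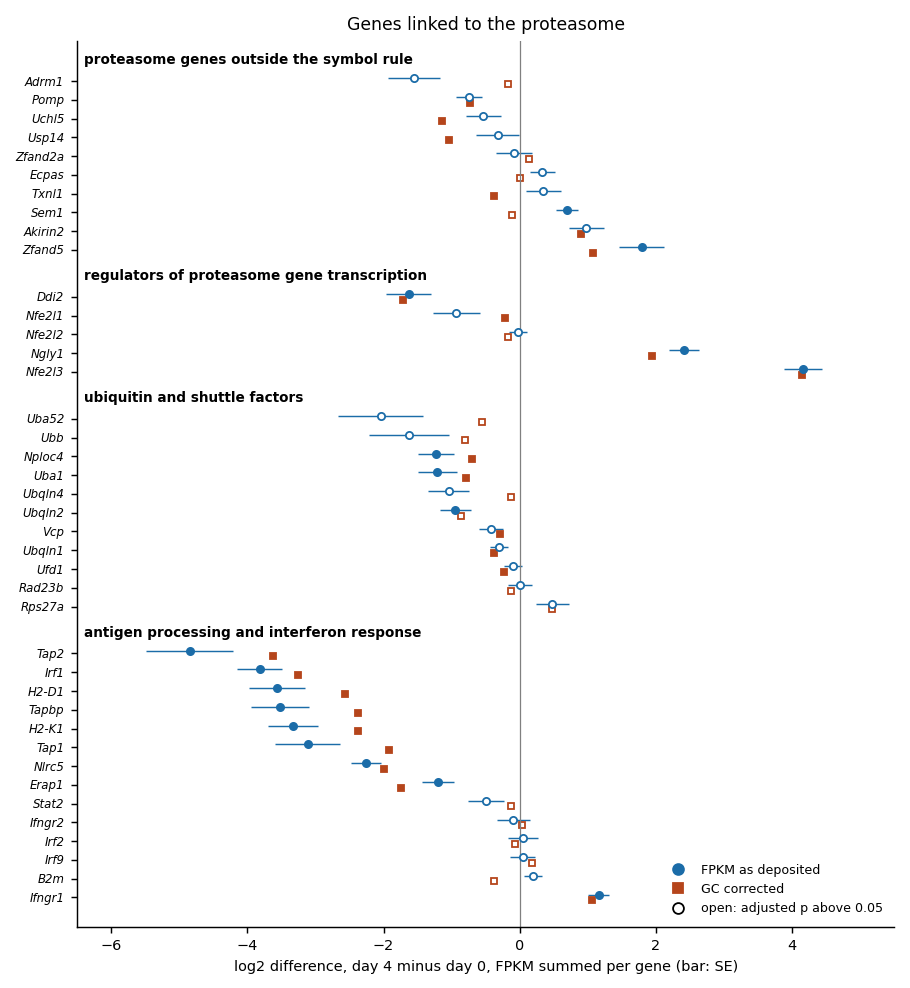
Log2 difference between day 4 and day 0 with its SE as deposited (circles), and the same after GC correction (squares), for genes linked to the proteasome that are reported here, summed per gene and filled where the adjusted p is at most 0.05. Tap2 is lowest at -4.85 and Nfe2l3 highest at 4.16, and in the antigen processing list 8 genes are lower on both scales.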

How the data were processed

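RNA of EBs at day 0 and day 4 of RA was sequenced from 16 libraries, 8 of each day, which come from 2 RNA samples of a day with 4 vials each. Samples were grouped by the labels, and the RNA sample of each vial was taken from the sample table of the study. The authors aligned the reads with bowtie2 2.1.0 to mm10 RefSeq and spike-in transcripts, estimated abundance with RSEM 1.2.18 and deposited FPKM per transcript after scaling each library by its TMM factor. The submitters' processing notes also name TopHat2 2.0.10. RSEM divides reads among transcripts with shared sequence, so rows of a gene and of close copies are uncertain. FPKM holds no counts. The study lists the number of reads of each library, but the reads behind each value were not derived here. No counting interval or limit of detection is therefore given. Columns were matched to samples by title (0 were left without one), 99.2% of 33702 RefSeq rows had a symbol and 97.4% a GC content.

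FPKM were averaged over the 4 vials and tested on log2(FPKM + 0.1), which understates changes of low rows, with limma 3.58.1 (lmFit, eBayes with a trend; R 4.3.3), 2 against 2 RNA samples, over 28262 rows not at 0 in all libraries (spike-in rows included), with Benjamini-Hochberg adjustment and an adjusted p of at most 0.05. Tables were handled in pandas 2.3.3 and numpy 2.4.6 under Python 3.11.15, exact tests were run in scipy 1.17.1 and plots were drawn in matplotlib 3.10.9. The p-values measure the spread between 2 RNA samples of a day. The GC correction sorts transcripts into 20 bins of GC content and removes from every library the amount by which its bin median departs from the average library, with bins set on 13894 rows with a mean of at least 1 FPKM. Simulated data held 28262 rows, of which 200 were changed. The fit recovered 0% of them at 2-fold, 0% at 4-fold and 65.5% at 16-fold, with 2.24% false calls at 16-fold. Smaller differences can thus be missed. The simulation changed far fewer rows than the 2445 lower and 2883 higher called here, and gave every row the spread of rows of like level. Its shares are therefore not those of the fit to these data, in which Psme3 passed at -0.97. The replicate numbers mark repeats of the whole procedure according to the study, and the differences between replicates correlated between the days with r = 0.541 over 14095 rows (0.405 after GC correction). As repeats of the procedure the replicate numbers pair the samples, but the main fit has no block and does not use the pairing. The part of GC content in this correlation was not tested. The fit with the block is an alternative, given beside results where it changes the call.

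The members, gene lists and tests were chosen with earlier results of these data known. Rows were named by a rule: active-site, activator and tissue-specific genes, the gene with the highest and the lowest mean over the 4 RNA samples in each group, the 5 largest rises and 5 largest falls among rows with a mean of at least 1 FPKM, and called rows. Others given by name were chosen after their values were seen. Promoters and gene positions are those of RefSeq on GRCm38.p6. Alternatives were pseudocounts, filters, averaging of logs, mix 4 vials only, day 0 replicate 2 from its mix 1 and mix 2 vials only, no trend, median centring, GC correction, sums per gene, the replicate block and each RNA sample left out. GC correction combined with the block, with the mix 1 and mix 2 vials, and with sums per gene were chosen after seeing the data. The ERCC and IVT spike-ins and assemblies were not analysed here. Some genes of the marker and linked lists are not reported here.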

Additional observations from a re-analysis of the deposited data

Results flagged for a closer look

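Summed levels of each structural group, the 3 partner ratios and the share of all members were examined over the 8 libraries of each day, and in 4 of 28 such sets 1 library lay far from the others. Chance gives about 1 in 20, and the libraries of a set are splits of only 2 RNA samples. At day 4 the summed level of Psmb8, Psmb9 and Psmb10 was 3.20 FPKM in the mix 3 vial of replicate 1, with the next at 2.16 FPKM. The same vial had the highest ratio of Psmb10 to Psmb7 at day 4, 0.777%, with the next at 0.515%. At day 0 the ratio of Psmb8 to Psmb5 was 36.7% in the mix 4 vial of replicate 2, 1 of the vials with lower values for GC-rich transcripts, with the next at 33.1%. At day 4 the assembly chaperones summed to 209.9 FPKM in the mix 2 vial of replicate 2, below the next at 217.5 FPKM. The part of these vials in the results was not tested.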

How the results depend on the processing

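The direction of all 3 immunoproteasome subunits and of the 3 ratios to their partners was the same under every alternative run. Psmb8 ranged from -8.81 to -5.52, Psmb10 from -6.24 to -4.26 and Psmb9 from -5.02 to -2.57 on the log2 scale, the highest values of Psmb8 and Psmb9 being those with a pseudocount of 1, since both lie below 1 FPKM at day 4. The ratios ranged from -7.36 to -4.09 for Psmb8, from -3.74 to -1.30 for Psmb9 and from -6.15 to -4.12 for Psmb10. Of 629 values of the 34 named rows, 517 stayed on their side of the threshold, 70 passed it only in the alternative, 37 no longer passed it and 5 turned with a call. The turned values are those of Psmc6, -0.44 after GC correction (also with the block and per gene) and -0.50 with the mix 1 and mix 2 vials in addition, and of Psmd5, -0.18 in that last setting. In all, 27 values of 9 rows changed sign. The causes were not tested.

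The number of members called lower, 7, was 0 with the mix 4 vials only, 13 with median centring, which raised all differences by 0.20, 20 after GC correction, 21 with the replicate block, 27 with both, 30 with the mix 1 and mix 2 vials of day 0 replicate 2, 34 with these and GC correction, and 26 per gene after GC correction. The number called higher, 0, was 6 with the mix 1 and mix 2 vials, 5 with GC correction in addition, and 1 after GC correction, with the block and correction together, and per gene. Over all rows the 2445 lower calls became 1385 without a filter, 1462 with logs averaged over the vials, 48 with the mix 4 vials, 8154 with the mix 1 and mix 2 vials, 4873 after GC correction, 5894 with the replicate block, 5305 with both, 7203 with both vial choice and correction, and 4965 per gene after correction. The 2883 higher calls became 191 with the mix 4 vials, 6256 with the mix 1 and mix 2 vials, 5276 after GC correction, 5311 with the block in addition, 7473 with both vial choice and correction, and 5638 per gene after correction.

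With a replicate left out, the members called lower ranged from 0 to 8 and those called higher from 0 to 2, and all rows from 0 to 4742 lower and from 0 to 3051 higher. Calls were made only without day 0 replicate 2, where 8 members were lower. Each such fit has 1 sample in an arm, which is assumed to vary like the other day. The medians then ranged from -0.035 to 0.19 for the alpha subunits and from -6.24 to -4.54 for the immunoproteasome subunits.

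Among group medians, the alpha subunits moved to 0.15 with the mix 1 and mix 2 vials and 0.16 with median centring. After GC correction, with or without the block, the medians moved to -0.14 for the constitutive beta subunits, -4.26 for the immunoproteasome subunits, -0.62 for the other base subunits and -0.10 for the chaperones. With the mix 1 and mix 2 vials in addition they were -0.26, -4.43 and -0.14 for beta subunits, immunoproteasome subunits and chaperones, and per gene -0.14, -4.26, -0.56 and -0.15 with the correction. The activators moved to -0.52 with median centring and -0.97 per gene, and the chaperones to 0.44 and -0.13. The reads behind each FPKM value were not derived here, so the precision of values below 1 FPKM is not given.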
